A study of Mus musculus with 2 samples.

Results

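The cells described here were the B-lineage cells of the trace library, 217 of 9247 trace cells that passed the quality filter (2.35%, 95% interval 2.05 to 2.68). They were chosen by transcripts. The filter asked for 500 or more detected genes per barcode and for no more than 10% mitochondrial RNA, measured in unique molecular identifiers (UMIs, counts of single captured RNA molecules). It was kept with a UMI of at least 2 of the 6 genes Cd79a, Cd79b, Vpreb3, Pax5, Blnk and Vpreb1, and with fewer than 20 UMIs of the neutrophil genes S100a8 and S100a9 together. The same rule found 0 of 6533 filtered cells in the pulse library, which allows a share of up to 0.0459%.

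The series held 2 droplet single-cell RNA libraries, 1 per group, of sorted knee joint cartilage cells from mice of the genotype Procr-CreER;tdTomato. In these mice the promoter of Procr, which encodes the endothelial protein C receptor, drives a recombinase that tamoxifen activates, and the red reporter then marks Procr-expressing cells and their descendants. All mice received tamoxifen at 4 weeks of age. The pulse cells were taken 2 days later and the trace cells 4 weeks later, so the trace mice were also older. Each library pooled 3 mice, and both were gated as negative for CD45, Ter119, CD31 and DAPI and positive for tdTomato. The gate was meant to remove blood cells, and the labels call the sorted cells superficial cells of articular cartilage. The labelled protocol also mentions periosteum. No control without tamoxifen or Cre was analysed here. With 1 library per group there was no test across samples, and all intervals are exact 95% intervals that cover counting error only. Limits and folds given for a count of 0 take 3 counts in its place and are not those intervals.

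B cells form in bone marrow in ordered stages. Early precursors express the recombinase genes Rag1 and Rag2 and the nucleotide-adding enzyme Dntt to assemble a heavy chain gene, and the heavy chain is then displayed with a surrogate light chain made from Igll1 and Vpreb proteins. Cells that display this pre-B receptor divide, leave the cycle, rearrange the kappa or lambda light chain genes, and go on to express surface IgM and later IgD, Ms4a1 (CD20) and MHC class II.

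The surrogate light chain genes are shown first, because they encode the part of the pre-B receptor that later stages lack. Igll1 was in 22 members and Vpreb1, a rule gene, in 26, and 16 cells held both. The RefSeq windows of up to 250 bases before the start site (build GRCm38.p6) were chr16:16869256-16869505 on the minus strand for Vpreb1, chr16:17980315-17980427 on the plus strand for Vpreb2, and chr16:16863986-16864235 on the minus strand for Igll1. The Vpreb2 window was ended at the GENCODE start of its transcript. Capitals mark CAGGTG, the E box letters that E2A-type factors are known to bind, or its reverse complement.
Vpreb1: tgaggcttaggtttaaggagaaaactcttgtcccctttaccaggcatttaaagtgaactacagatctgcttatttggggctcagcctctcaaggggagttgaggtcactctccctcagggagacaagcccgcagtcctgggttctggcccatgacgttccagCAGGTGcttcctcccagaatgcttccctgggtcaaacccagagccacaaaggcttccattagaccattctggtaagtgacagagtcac
Vpreb2: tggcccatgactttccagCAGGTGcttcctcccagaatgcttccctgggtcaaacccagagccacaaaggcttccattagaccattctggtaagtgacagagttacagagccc
Igll1: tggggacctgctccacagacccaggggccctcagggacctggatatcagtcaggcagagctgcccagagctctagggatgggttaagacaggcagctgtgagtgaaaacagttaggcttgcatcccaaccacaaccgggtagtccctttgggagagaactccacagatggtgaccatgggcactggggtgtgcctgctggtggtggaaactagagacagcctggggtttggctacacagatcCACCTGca

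The Vpreb1 and Vpreb2 windows shared an aligned stretch of 106 bases with 104 identical (98.1%), and the motif lay within it. It began 88 bases before the RefSeq start of Vpreb1, 232 before that of Vpreb2 and 8 before that of Igll1. Of the 6 rule genes and the 5 precursor class genes defined below, 10 of 11 had a RefSeq window. CAGGTG on either strand was in 6 of the 10 (Blnk, Cd79a, Igll1, Rag1, Vpreb1 and Vpreb2) and in 17.2% of the 32851 windows searched. A gene counted if any of its windows matched, while the percentages are of single windows, so the 2 are not in like units. The octamer ATTTGCAT was in 2 of the 10 (Blnk and Vpreb3) and in 1.60% of the windows. The PAX5-type sequence GCNTGAC was in 2 (Igll1 and Vpreb3) against 8.79%, and the EBF1 core CCCNNGGG in 1 (Igll1) against 11.8%. These are matches of letters, chosen with the expression results known. The Vpreb1 and Vpreb2 transcripts were 97.4% identical over 759 aligned bases, so their counts can be split between the genes by the read counting, and Vpreb2 values are uncertain.

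The trace library held 10423 barcodes with 40284041 UMIs and the pulse library 6863 barcodes with 23306063 UMIs. The 217 members held 708184 UMIs, with a lowest, median and highest of 781, 2073 and 16333 UMIs per cell. The other 9030 filtered trace cells had a median of 3678.5. Members were compared with 3 sets among them, also set by transcripts, which were 291 neutrophils (20 or more S100a8 and S100a9 UMIs, median 2388 UMIs), 29 progenitors (2 or more of 8 myeloid and erythroid genes, median 9473) and 4878 surface chondrocytes (20 or more Prg4 UMIs, median 4599.5). Prg4 encodes lubricin, the lubricating protein of the cartilage surface. The libraries shared 16 barcodes, 1 of them a member's.

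At the edge of the rule, 111 filtered trace cells with under 20 S100a8 and S100a9 UMIs had 1 rule gene and stayed out. In them Ighm, the IgM heavy chain gene, was at 315 CPM (a gene's UMIs per 1000000 summed UMIs) and in 30.6% of cells. The 53 members with 2 rule genes had 1657 CPM of Ighm, in 94.3% of cells. A further 63, 56, 37 and 8 members had 3, 4, 5 and 6 rule genes. The neutrophil limit kept out 1 cell, with 398 S100a8 and S100a9 UMIs. The highest member had 10, and 202 members had none.

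Among the rule genes, Blnk, an adaptor of B-cell receptor signalling, was in 80.2% of members and Pax5, the transcription factor of B-cell commitment, in 76.5%. The signalling chains of the receptor followed, with Cd79b in 63.1% and Cd79a in 60.4%. Vpreb3 was in 54.4%, and the surrogate light chain gene Vpreb1 in 26 cells. These shares are set by the rule. Each of the 6 was in at most 0.498% of the other trace cells.

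B-lineage genes that the rule did not use were high in the same cells. Ighm had 2861 CPM in the members and 6.69 CPM in the other trace cells (428-fold, 95% interval 376 to 489). A UMI of it was in 209 of 217 members (96.3%), 4.47% of neutrophils and at 1.31 CPM in surface chondrocytes. Where detected, Ighm ranged from 1 to 46 UMIs per cell, with a median of 8. Ebf1, a factor that specifies the B lineage, was in 207 members at 1 to 200 UMIs per cell (median 9), with 4202 CPM against 314 CPM. Ly6d, a surface protein of B-lineage cells, had 491 CPM against 0.804 CPM and was in 115 members. Ikzf3, a lymphoid zinc finger factor, had 441 CPM against 1.58 CPM. The B-cell kinase gene Blk had 186 CPM against 0.674 CPM.

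Of the 20 genes on this list, 19 were at least 2-fold higher in the members and none was 2-fold lower. Foxo1, at 473 CPM against 365 CPM, was the other. The list's median log2 ratio was 6.89, against 0.34 over all 7630 genes at 20 CPM or more in either sum. Of those 7630 genes 27.2% (2073) were at least 2-fold higher and 19.3% (1475) at least 2-fold lower. With ratios divided by their median, the counts were 1486 higher and 1878 lower, so counts of higher genes are to be read against this shift. The plot of detection shares gives each gene of these lists.

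Genes of signalling from the B-cell receptor were also higher, with 10 of 12 measured at 20 CPM or more at least 2-fold higher and none 2-fold lower (median log2 3.83). The kinase genes Syk and Lyn had 813 and 559 CPM against 19.3 and 39.6 CPM. Prkcb and the lipid phosphatase gene Inpp5d had 404 and 354 CPM against 12.7 and 12.6 CPM. Neutrophils shared several of them, with 743 CPM of Lyn and 309 CPM of Syk. Genes outside the fixed lists with the highest ratios were led by the lymphocyte surface receptor gene Slamf6 (123 CPM, 316-fold, 95% interval 181 to 589), Cecr2 (1086 CPM, 230-fold), Tmem163 (428 CPM, 223-fold), Ptprcap (208 CPM, 200-fold) and Cacna1e (130 CPM, 186-fold). Ptprcap encodes a partner of CD45 and was in 37.3% of members. Lrmp, Rhoh and Wdfy4 followed with 174-fold, 162-fold and 151-fold. Pclaf, a replication factor, was 85.0-fold higher and in 20.3% of members.

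Among the 10 genes lowest in the members against the other trace cells, Hspb1, a small heat shock protein gene, came first with 7.06 CPM against 213 CPM (a ratio of 0.0331). Igfbp6 had 9.88 CPM against 218 CPM, and the complement gene C4b 14.1 CPM against 181 CPM. The metallothionein gene Mt2 had 31.1 CPM against 292 CPM. The others were Ccdc80, Adamts1, the chemokine gene Cxcl2, Cilp2, Bicc1 and the water channel gene Aqp1, at 11.3 to 18.4 CPM in the members.

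A small group of members also held cartilage transcripts. Prg4 was at 20 or more UMIs in 24 members, with 31 to 733 UMIs (median 141.5), and these cells had a median of 7814 UMIs in total. Of the other 193, 91 had no Prg4 UMI, 93 had 1 to 3, and 9 had 4 to 19. The 8 chondrocyte markers summed to 42240.4 CPM in the 24 cells, 1056 CPM in the 193 and 47651 CPM in surface chondrocytes. Scrublet, a doublet caller, placed 31 members among the highest-scoring 5% of trace cells, 19 of them among the 24. Whether these were 2 cells in 1 droplet was not tested further. Values without the 24 are given beside some of the results they touch, not all.

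**Figure D1:**
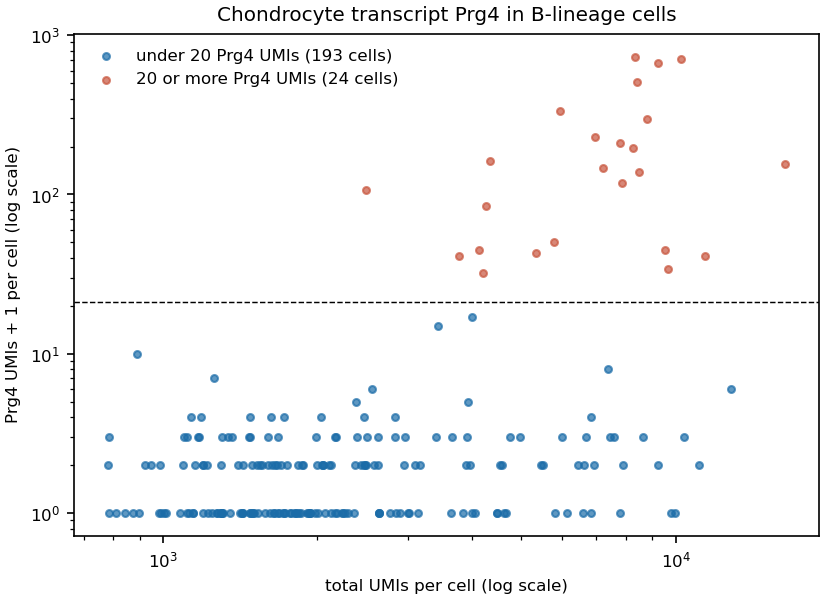
Prg4 UMIs plus 1 against total UMIs in each of the 217 B-lineage cells, both on log axes. Points in red are the 24 cells at 20 or more Prg4 UMIs, which start at 31 Prg4 UMIs, and the dashed line marks the threshold.

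Markers of T and NK cells, megakaryocytes and myeloid progenitors were at or near 0. Of 12 T and NK cell markers, 10 were at 0 in all members, and the others summed to 2 UMIs. All 4 megakaryocyte markers and 6 of 7 myeloid progenitor markers were at 0. Neutrophil markers summed to 60.7 CPM in members, 4809 CPM in the other trace cells and 184726 CPM in neutrophils, with no UMI in 190 members. Monocyte and macrophage markers summed to 60.7 CPM, against 72.8 CPM in the other trace cells. Of their 43 UMIs, 33 came from Ctss, which B cells also express. Erythroid markers summed to 84.7 CPM against 547 CPM. Plasmacytoid dendritic cell markers summed to 767 CPM against 655 CPM, with 2 of 3 genes at the floor at least 2-fold higher. A single member, picked out after its values were seen, had 13 UMIs of Siglech, a marker of plasmacytoid dendritic cells. It had 44 Tcf4 and 17 Irf8 UMIs, 4 UMIs of Blnk, 1 of Cd79b and 8 of Ighm, and none of Cd79a, Vpreb3, Pax5 or Ebf1. Markers of joint, bone and vessel cells were also found outside the 24 Prg4-rich members. In the other 193, fibroblast markers summed to 1052 CPM (10531 CPM in the other trace cells), with up to 278 UMIs in a cell. Osteoblast markers summed to 62.3 CPM, with up to 24 UMIs in a cell, and endothelial markers to 161 CPM, with up to 18. Of the 193, 12 had 5 or more UMIs of the chondrocyte markers, 7 of the fibroblast, 2 of the endothelial and 1 of the osteoblast markers, 15 cells in all. Their part in the results was measured by leaving out these 15 with the 24, which left 178 members.

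The precursor genes Igll1, Vpreb2, Dntt, Rag1 and Rag2 were each present in a minority of members at low counts. Over the whole precursor list 32 members had no UMI, the median was 3 UMIs per member, and the sum was 2047 CPM. Igll1 was in 22 members (1 to 8 UMIs where detected, median 2) and Dntt in 16 (1 to 16 UMIs, median 4). Rag1 was in 38 members with 61 UMIs, Rag2 in 17 with 20 UMIs, and Vpreb2 in 4 with 5 UMIs. Dntt had 127 CPM in the members and 0.104 CPM in the other trace cells, and Rag1 86.1 CPM against 0.0778 CPM. Il7r, the receptor for the cytokine that sustains precursors, was in 79 members (36.4%) at 281 CPM, against 0.674 CPM. The transcription factor genes Lef1, Myb and Sox4, used in many immature cells, had 414, 329 and 297 CPM against 6.27, 6.77 and 30.8 CPM. Il2ra, the CD25 chain seen on pre-B cells, was in 30 members. Of 12 precursor genes at 20 CPM or more, 11 were at least 2-fold higher and none 2-fold lower, with Erg at 123 CPM against 196 CPM. Mme was at 0 in all members. Kit and Flt3, receptors of earlier progenitors, were in 5 and 4 members.

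Genes of later stages were also at low counts. Over the whole mature list 56 members had no UMI, the median was 2 UMIs per member, and the sum was 787 CPM. Ighd, the IgD heavy chain gene, was in 52 members (24.0%), with 1 to 4 UMIs and a median of 1. Ccr7, a homing receptor gene, was in 43, and Ms4a1 in 27. The activation marker gene Cd69 had 161 CPM and was in 49. The follicular and marginal zone receptors Fcer2a and Cr2 had 2 UMIs each. Klf2, which controls exit of mature lymphocytes into blood, was at 114 CPM in the members and 140 CPM in the other trace cells. Of 10 mature genes at 20 CPM or more, 9 were at least 2-fold higher. Cd74, the MHC class II chaperone, was in 67 members (30.9%) at 299 CPM, against 4.64 CPM in the other trace cells, 4.10 CPM in neutrophils and 0.597 CPM in surface chondrocytes. H2-Aa was in 19 members, of which 17 also had Cd74.

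Transcripts of switched antibody classes were almost absent. Ighg1, Ighg2c, Ighg3, Igha and Ighe had 0 UMIs in the members, and Ighg2b had 2. A count of 0 in 217 cells allows a share of up to 1.38% of cells with a UMI. Of the plasma cell genes, Jchain and Tnfrsf17 had 0 UMIs, and Sdc1 was in 9 members. Mzb1, an endoplasmic reticulum protein gene also active before the plasma cell stage, was in 83 members at 225 CPM, against 0.207 CPM. Xbp1 was at 83.3 CPM against 138 CPM. Germinal centre genes had 0 of 3 measured genes 2-fold higher, and Bcl6 had 90.4 CPM against 174 CPM in the other trace cells.

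Precursor and mature transcripts divided the members into classes. A cell with a UMI of Igll1, Vpreb2, Dntt, Rag1 or Rag2 and none of Ighd, Fcer2a, Cr2, Ms4a1, Fcmr or Ccr7 was called precursor only, and the reverse mature only. By this count 35 members (16.1%, 95% interval 11.5 to 21.7) were precursor only, 70 (32.3%, 26.1 to 38.9) mature only, 28 (12.9%) both and 84 (38.7%) neither. The classes rest on few molecules, since 29 members had 1 UMI of the precursor genes and 53 had 1 UMI of the mature genes. Of the members, 19 had 3 or more precursor UMIs (up to 23) and 29 had 3 or more mature UMIs (up to 9). Median depth was 3656 UMIs in precursor-only cells and 1870.5 in mature-only cells, and after each cell was thinned to 1500 UMIs the shares were 19.2% and 23.7%. The 24 Prg4-rich members were spread as 4, 7, 3 and 10 over the classes in the same order.

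Pairs of genes are counted here without a class rule. Igll1 and Dntt were found together in 11 cells, of 22 and 16. None of the 27 Ms4a1 cells and none of the 67 Cd74 cells had Igll1 or Dntt. All 22 Igll1 cells and 15 of 16 Dntt cells had Ighm. Igkc, the kappa light chain constant gene, was in 3 of 22 Igll1 cells and 2 of 16 Dntt cells, but in 23 of 27 Ms4a1 cells. Of 38 Rag1 cells, 23 had Igkc. Rag1 acts at both the heavy and the light chain steps.

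Genes that did not define the classes differed between them as well. Among precursor-only cells Il7r was in 68.6%, among mature-only cells in 25.7%, and at 1500 UMIs in 48.3% and 14.8%. Lef1 had 919 CPM in precursor-only and 119 CPM in mature-only cells (7.71-fold, 95% interval 5.09 to 12.1), and without Prg4-rich members the ratio was 8.54. Ebf1 had 5997 CPM against 3264 CPM, and Arpp21 167 CPM against 0 UMIs. Vpreb1, a rule gene, had 389 CPM against 13.3 CPM, in 13 of 35 and 3 of 70 cells. Its reads can be split with those of the class gene Vpreb2, so this difference is not independent of the classes. Cd74 went the other way, at 30.9 CPM against 565 CPM (18.3-fold lower), as did H2-Aa, with 0 UMIs in the 35 cells and 31 UMIs in the 70. Cd22, an inhibitory receptor gene, was in 1 of 35 and 16 of 70 cells. Ly6d had 228 CPM against 640 CPM.

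Over all genes, 13.4% of 7698 (1030) were at least 2-fold higher in precursor-only cells and 16.4% (1266) at least 2-fold lower, with a median log2 ratio of -0.10. Divided by that median, the counts became 1321 and 1082. Outside the class genes, 4 of 8 precursor genes at the floor were 2-fold higher and none lower, and 4 of 8 mature genes were 2-fold lower and none higher. Of the MHC class II genes, 5 of 6 were 2-fold lower. The genes with the most extreme ratios outside the lists included joint transcripts from very few cells. Mmp13, a collagenase gene, had 92 UMIs in 2 of the 35 precursor-only cells and 2 UMIs in the 70 mature-only cells. Msmp had 105 UMIs in 3 mature-only cells, Fabp4 25 UMIs in 1, and Cemip 24 UMIs in 1 precursor-only cell. Of the 20 genes named by this ratio, 4 had at least 50% of their UMIs from Prg4-rich members. More widely spread were Auts2 (155 UMIs in 10 of 35 cells against 8 UMIs in 6 of 70), the replication protein gene Rpa3 (19 UMIs in 10 of 35 cells against 3 in 2), the Notch pathway gene Dtx1 (1 UMI against 38 UMIs in 25 of 70 cells), Rgs2 (3 against 67 UMIs, in 28 of 70 cells) and the lipid desaturase gene Scd1 (0 against 40 UMIs, in 25 of 70 cells).

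Light chain transcripts were found in most members. Igkc was in 133 (61.3%, 95% interval 54.5 to 67.8), with 1 to 29 UMIs and a median of 3. The lambda constant genes Iglc1, Iglc2 and Iglc3 together were in 85 (39.2%, 32.6 to 46.0). Free RNA can give such UMIs to any droplet, and its part here was not tested. In surface chondrocytes, which exclude members by definition and had a deeper median of 4599.5 UMIs, the shares were 0.0410% and 0.123%. In neutrophils they were 0.344% and 0.687%. By constant genes, 74 members had kappa only, 26 lambda only, 59 both and 58 neither. Of the 59, 34 had more Igkc, 17 more lambda and 8 equal counts. Among 67 members with 5 or more light chain UMIs, 21 had at least 90% from Igkc, 10 had at most 10%, and 36 lay between. After thinning to 1500 UMIs the shares with Igkc and with lambda were 53.2% and 29.5%.

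The Iglc2 and Iglc3 transcripts were 95.4% identical over 452 aligned bases, so the split of counts between them is uncertain. Iglc1 was 72.7% identical to Iglc2 and 70.3% to Iglc3. Of these genes, Iglc1 had 127 UMIs, Iglc2 126 and Iglc3 82. Variable segments were rarely captured in this assay of transcript ends, with 60 UMIs of kappa segments in 39 members, 9 of lambda segments in 9 and 13 of heavy chain segments in 12. Light chain shares differed by class. Igkc was in 31.4% of precursor-only, 65.7% of mature-only, 64.3% of both and 69.0% of neither cells. Lambda was in 25.7%, 58.6%, 39.3% and 28.6%.

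Cell cycle transcripts were higher in the members than in the other trace cells. The 42 S phase genes summed to 2512 CPM against 447 CPM (5.62-fold, 95% interval 5.35 to 5.90), and the 52 G2/M genes to 5634 CPM against 877 CPM (6.42-fold, 6.22 to 6.64). Of the genes at 20 CPM or more, 34 of 35 S and 41 of 45 G2/M genes were at least 2-fold higher, none lower, with median log2 ratios of 3.16 and 3.93. Hmgb2, a chromatin protein gene, had 1073 CPM against 144 CPM. Top2a, the topoisomerase that untangles replicated chromosomes, had 463 CPM against 10.8 CPM and was in 24.0% of members. Mki67, the common proliferation marker, had 319 CPM against 11.4 CPM and was in 22.1%. Of S phase genes, Pcna had 154 CPM against 53.1 CPM and Pola1 155 CPM against 14.4 CPM. The S and G2/M sums were 2229 and 5917 CPM in progenitors, and 881 and 3690 CPM in neutrophils. Mki67 was in 58.6% of progenitors, which were deeper, and in 15.1% of neutrophils.

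By cell, 87.1% of members and 80.4% of the other trace cells had 2 or more UMIs of the 94 genes. The latter were deeper. With every cell thinned to 1500 UMIs, 132 of 156 members (84.6%, 95% interval 78.0 to 89.9; 61 shallower cells left out) had 2 or more, against 48.6% of the other trace cells (1125 left out), 69.9% of neutrophils, 92.9% of progenitors and 45.2% of surface chondrocytes. Without the Prg4-rich members the share was 87.1%.

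The members were not uniform. The lowest, median and highest share of a member's UMIs from cycle genes were 0%, 0.215% and 3.49%. Between 0.6% and 1% there were 7 members, under 0.6% there were 160, and at 1% or more there were 50 (23.0%, 95% interval 17.6 to 29.2). The 1% division was chosen after this distribution was seen. It held 57 of 9030 other trace cells (0.631%), 31 of 291 neutrophils (10.7%), 6 of 29 progenitors (20.7%) and 4 of 4878 surface chondrocytes (0.0820%). Counted on cells thinned to 1500 UMIs, it held 28.2% of members, 12.7% of neutrophils, 35.7% of progenitors and 0.0855% of surface chondrocytes. Near the division, 22 members lay between 0.6% and 1.5%. Without Prg4-rich members 48 of 193 (24.9%) were at 1% or more.

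**Figure D2:**
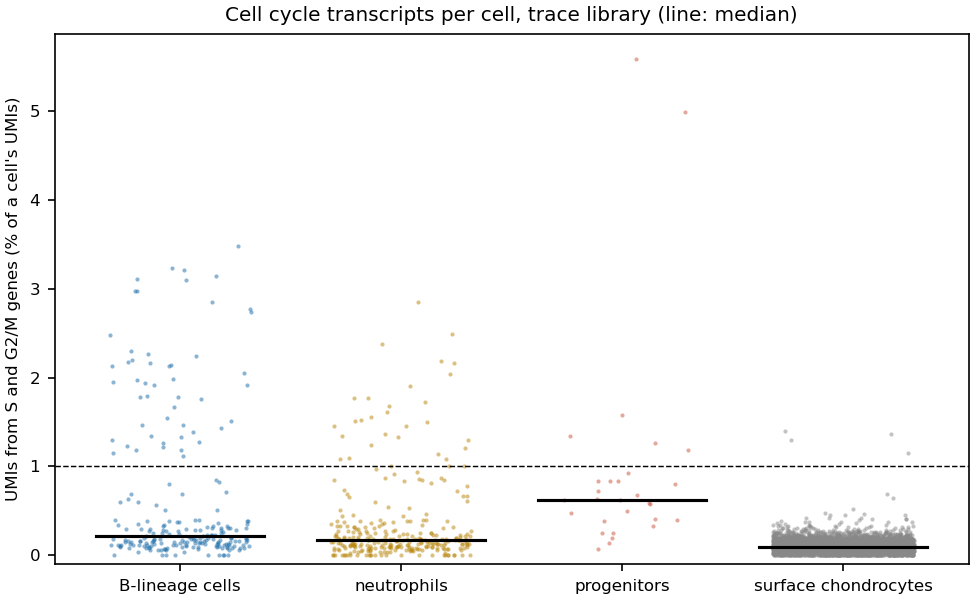
Share of each cell's UMIs from the S and G2/M genes (y axis, percent) in the 217 B-lineage cells, 291 neutrophils, 29 progenitors and 4878 surface chondrocytes of the trace library. Each point is a cell, placed sideways at random, black lines are medians and the dashed line is at 1%; 50 B-lineage cells lie at or above it and 4 surface chondrocytes do.

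The 50 cycle-high members differed from the other 167 in stage genes. Their median depth was 4033 UMIs against 1827, and 2 of the 24 Prg4-rich cells were among them. Over all 7788 genes at 20 CPM or more, 17.7% (1379) were at least 2-fold higher in cycle-high cells and 18.4% (1435) at least 2-fold lower, with a median log2 ratio of -0.02. All 52 G2/M genes and 38 of 41 S genes were higher, which the division sets.

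Of 13 precursor genes, 5 were 2-fold higher in the cycle-high cells and 1 was 2-fold lower (median log2 0.68). Dntt, of the earlier heavy chain step, had 264 CPM against 54.1 CPM (4.87-fold, 95% interval 3.03 to 8.06) and was in 10 of 50 and 6 of 167 cells. Igll1, of the pre-B receptor, had 154 CPM against 56.3 CPM (2.74-fold, 1.62 to 4.70), in 11 of each group. Il7r had 394 CPM against 221 CPM, and Cd24a, a surface protein high on immature B cells, 1059 CPM against 412 CPM. Of the rule genes, which chose the members and are given only as a description, Vpreb1 had 211 CPM against 78.0 CPM and Vpreb3 856 CPM against 360 CPM. At 1500 UMIs, Dntt was in 17.8% of 45 cycle-high and 2.70% of 111 other cells, and Igll1 in 15.6% and 7.21%. Rag1 did not follow, with 52.7 CPM against 104 CPM, and Il2ra had 20.3 CPM against 67.1 CPM. Leaving out the Prg4-rich members gave ratios of 3.85 for Dntt, 2.16 for Igll1 and 2.07 for Cd24a. It gave 1.25 for Il7r, in place of 1.78, and 0.450 for Rag1.

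The summed level of the precursor list was 2641 CPM against 1731 CPM (1.53-fold, 95% interval 1.37 to 1.69). Without Prg4-rich members, which were mostly among the other cells, the ratio was 1.20 (1.07 to 1.34), and that of Igll1 with Vpreb2 was 2.03 in place of 2.58. Without the 15 members that held other joint, bone or vessel markers as well, the list's ratio was 0.992 (0.882 to 1.11), so its summed level no longer differed beyond counting error, while Igll1 with Vpreb2 was at 1.84 (1.09 to 3.17) and the 5 class genes at 1.38 (1.04 to 1.84). Leaving out those 15 took the 5 class genes in cycle-high cells from 129 UMIs in 20 cells to 107 UMIs in 19 cells. A ratio of Dntt alone is not given for that set. At the division fixed for the comparison, 2 cycle UMIs, the precursor ratio was 0.822 (0.666 to 1.02). That division held 189 members at or above it and 28 under it.

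Mature and light chain genes were lower in cycle-high cells. No lambda constant UMI was found in the 50 cells, which allows up to 6% of cells, while 85 of the other 167 (50.9%) had 335 UMIs. With 3 UMIs taken for the count of 0, the level was 59.6-fold lower, and 71.4-fold lower without Prg4-rich members. The upper limit of the exact interval of the ratio was 0.0207, and 0.0173 without them. At the division of 2 cycle UMIs, lambda was in 70 of 189 and 15 of 28 cells, and the level was 6.04-fold lower. At 1500 UMIs, Iglc1, Iglc2 and Iglc3 were each in 0 of 45 cells, and in 15.3%, 23.4% and 19.8% of 111 cells. Igkc was in 24 of 50 and 109 of 167 cells, at 227 CPM against 1014 CPM (4.46-fold lower). Ighm was in 96.0% and 96.4% of cells, at 2020.4 CPM against 3309.5 CPM.

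Cd74 had 8.11 CPM in cycle-high cells, from 2 UMIs, and 455 CPM in the others. The MHC class II genes summed to 101 CPM against 689 CPM (6.79-fold lower; 10.0-fold lower without Prg4-rich members), with 4 of 5 genes 2-fold lower. H2-Ab1, at 48.7 CPM against 32.5 CPM, was the other. Of 12 mature genes, 8 were 2-fold lower and none higher, and their sum was 333 CPM against 1029 CPM (3.09-fold lower). At 2 cycle UMIs the sums were 2.08-fold lower for MHC class II genes and 1.52-fold lower for mature genes. All 24 Prg4-rich members were at or above that division. The rule genes Cd79a, Cd79b, Vpreb3, Pax5 and Blnk had ratios of 0.388 to 0.628 there, and Vpreb1 4.90 (0.856 to 196). Without those 24, the log2 ratios there were -0.88 (-1.39 to -0.34) for MHC class II and -0.37 (-0.82 to 0.11) for mature genes. With 3 or more rule genes they were 1.03 (-0.22 to 2.66) and 0.04 (-0.64 to 0.81). Without the 24 Prg4-rich members and the 15 with the other markers, the sums were 11.5-fold and 4.35-fold lower at 1%. Ms4a1, Fcmr and Cd83 had 0 UMIs in the 50 cells, against 47, 22 and 54 UMIs in the others. Ly6d had 101 CPM against 699.6 CPM, and Btg1, an antiproliferative gene, 617 CPM against 1592 CPM. Of cell cycle regulators, Cdk6 had 207 CPM against 95.3 CPM, and Ccnd3, the cyclin that pre-B cells rely on, 369 CPM against 303 CPM, with an interval of the ratio from 0.925 to 1.60.

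By class, 14 of 35 precursor-only members (40.0%, 95% interval 23.9 to 57.9) were cycle-high, 11 of 70 mature-only (15.7%, 8.11 to 26.4), 6 of 28 with both (21.4%) and 19 of 84 with neither (22.6%). The intervals of the first and second values overlap, and the difference itself was not tested. Median depth was 3656 UMIs in precursor-only and 1870.5 in mature-only cells, and 4033 in cycle-high and 1827 in the other members. The part of depth in these shares was not tested.

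**Figure D3:**
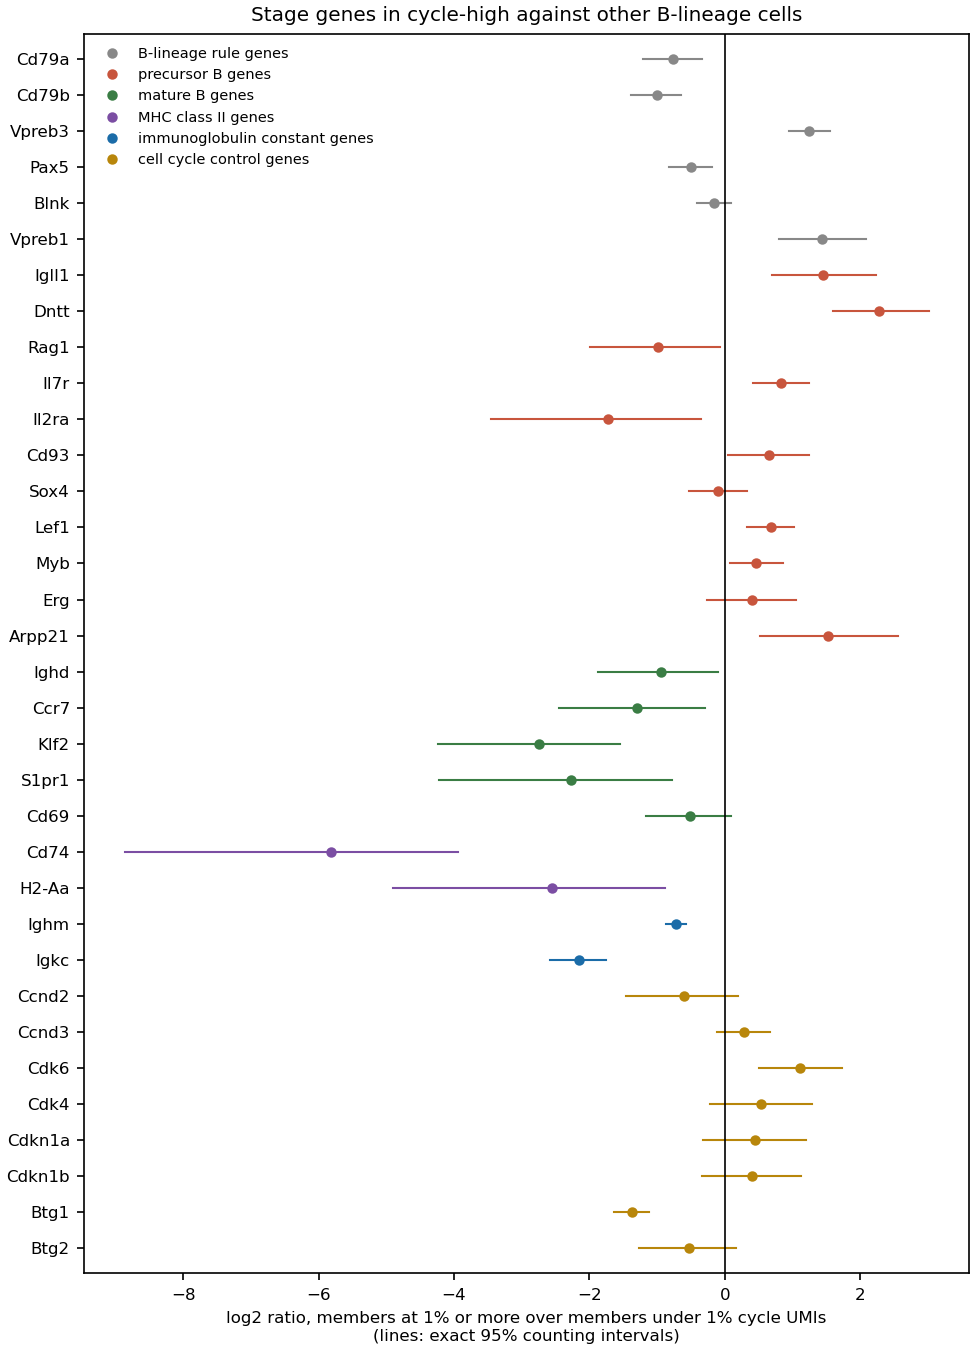
Log2 ratio of summed CPM in the 50 cycle-high members over the other 167 (x axis) for genes of the stage, antibody and cycle control lists with 30 or more UMIs in total and at least 1 in the cycle-high cells. Points are ratios and lines exact 95% counting intervals; Dntt, Igll1 and Arpp21 lie right of 0, and Cd74, Igkc and Klf2 left of 0, and the rule genes (grey) chose the members and are shown only as a description.

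**Figure D4:**
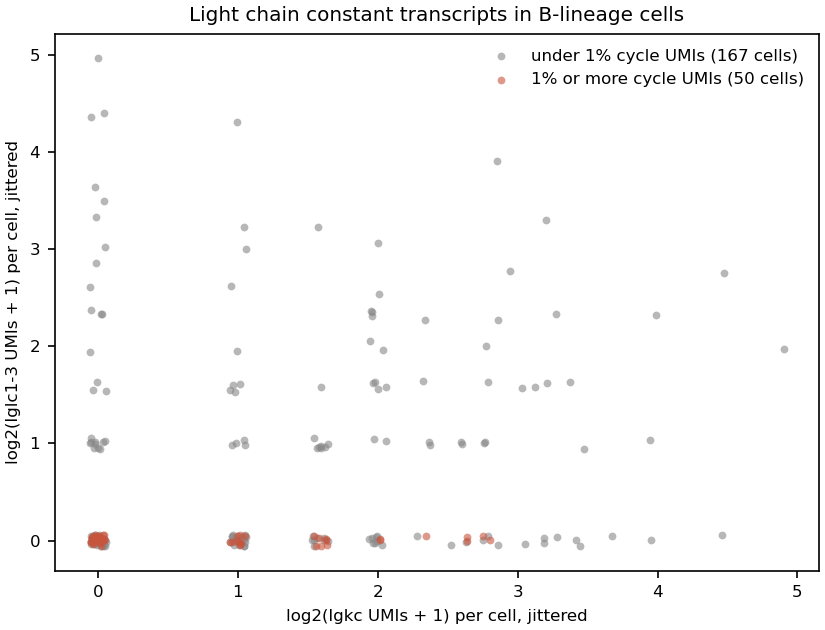
Light chain transcripts in each of the 217 B-lineage cells, as log2 of Igkc UMIs plus 1 (x axis) and of summed Iglc1, Iglc2 and Iglc3 UMIs plus 1 (y axis), with points shifted slightly at random. The 50 cycle-high cells (red) all lie at 0 lambda UMIs and 24 of them have Igkc.

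The transcripts of the sort markers were measured in the members last. Ptprc, which encodes the CD45 protein that the gate excluded, was in 101 of 217 members (46.5%) at 243 CPM, 84.5% of neutrophils at 887 CPM and 0.451% of surface chondrocytes. At 1500 UMIs the shares were 33.3%, 66.4% and 0.171%. Within the members, cycle-high cells had 170 CPM of Ptprc against 282 CPM. Pecam1, which encodes CD31, was in 20.7% of members and 4.12% of neutrophils, while the endothelial genes Cdh5 and Kdr were in 3 cells and 1 cell.

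The reporter and its driver were sparse. Tdtomato was in 17 members, at 0.124 UMIs per cell (95% interval 0.0820 to 0.181), against 0.0893 (0.0584 to 0.131) in neutrophils and 0.409 (0.391 to 0.427) in surface chondrocytes. In the 24 Prg4-rich members it was 0.583 per cell, and in the other 193 it was 0.0674 (0.0359 to 0.115). Procr was in 8 members (3.69%), 4.81% of neutrophils and 13.6% of surface chondrocytes. The part of free RNA, of Prg4-rich droplets and of sort purity in these values was not tested.

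Of the receptors for adhesion and homing, Itga4 and Cxcr4, which hold B precursors in marrow, had 174 and 134 CPM in the members against 8.29 and 8.32 CPM in the other trace cells. Itgb1 had 131 CPM against 346 CPM, and Ackr3 140 CPM against 639 CPM. Of 6 genes of this list at the floor, 3 were 2-fold higher and 3 lower. Ackr3 and Itgb1 were at 54.8 and 60.4 CPM without the Prg4-rich members.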

How the data were processed

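Both matrices as deposited hold whole-number UMI counts that were not normalized. Cell Ranger 7.1.0 is the version per the file headers, while the submitters' processing notes list Cell Ranger 3.0.1, STAR, HTSeq, Seurat, DESeq2 and mm10. This was not settled, and whether intron reads were counted is not given in the sources used here. The 10x Genomics 3' V2 kit and a NovaSeq instrument were used, per the labels' protocols.

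Filters are given in the report. Counts were summed over cells and scaled to their total (CPM). Ratios carry exact conditional Poisson intervals and shares Clopper-Pearson intervals. A gene was called at 2-fold with 20 CPM or more in either sum. Thinning drew UMIs without replacement (seed 7). A simulation drew Poisson counts for members over other trace cells, with 3293 genes at 50 CPM or more. In it, 67 of 67 genes at 3-fold and 1 of 3093 unchanged genes were called. It held no spread between cells and left out the class and cycle divisions. It sets no false call rate for the real counts. Doublets were left in, and Scrublet scores (scanpy 1.11.5) gave an alternative. Tables were made with pandas 2.3.3, numpy 2.4.6 and scipy 1.17.1 under Python 3.11.15.

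The members, 28 gene lists, classes and motifs were chosen with earlier results of these data known. Genes named were those of the main lists, up to 4 of each other list by CPM, and outside the lists the 15 highest and 10 lowest ratios against other trace cells and the 10 highest and 10 lowest between classes, at 100 CPM or more, leaving out predicted, mitochondrial, ribosomal protein, haemoglobin and antibody variable genes. A few genes of the lists count in the totals but are not reported here.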

Additional observations from a re-analysis of the deposited data

Results flagged for a closer look

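Among the 1176 trace barcodes that failed the cell filter, 12 met the rule for B-lineage cells, a signal in barcodes that no comparison used. Of these, 9 had under 500 detected genes and 3 had over 10% mitochondrial UMIs. None of the 330 pulse barcodes that failed the filter met the rule.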

How the results depend on the processing

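No paired analysis was possible because each group had 1 library. Libraries could not be left out for the same reason. Of 170 alternative values, 125 moved by less than the counting error, or for counts of genes by less than 1.5 times. At 1000 detected genes the members were 1.82% of filtered trace cells, 22.8% of them precursor only and 32.3% with lambda, and the log2 ratio of precursor genes at the division of 2 cycle UMIs was -1.15 (main value -0.28). With 3 or more rule genes the members were 1.77%. The MHC class II log2 ratio at 2 cycle UMIs then went from -1.06 to 1.03, with an interval of -0.22 to 2.66 that includes 0. At a floor of 50 CPM, 1139 genes were higher and 931 lower than in other trace cells, and 463 higher and 585 lower in precursor-only cells, since fewer genes were compared. With 5 cycle UMIs 46.8% of members passed, and thinned to 1000 or 2500 UMIs 67.2% and 98.9%. Mature-only cells were 18.9% with 2 class UMIs and 23.7% after thinning. Igkc and lambda shares were 41.9% and 24.9% with 2 UMIs, and 53.2% and 29.5% after thinning. At 0.6%, 1% and 1.5% of cycle UMIs, divisions added after the data were seen, 26.3%, 23.0% and 16.1% of members passed, with log2 ratios of precursor genes of 0.53, 0.61 and 0.78. Without the 24 Prg4-rich members and 15 with 5 or more UMIs of other joint, bone or vessel markers, also added then, the members were 1.93% of filtered trace cells and the log2 ratio of precursor genes at 2 cycle UMIs was 0.063. For the other values the cause was not tested. At these depths a UMI missing from a cell does not show that the gene was silent there.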
